A study of Mus musculus with 10 samples.

Results

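The genes described here are 10 genes used to recognise endothelial cells and their arterial or venous identity: *Pecam1*, *Cdh5*, *Emcn*, *Plvap*, *Egfl7*, *Gja4*, *Gja5*, *Sox17*, *Sox18* and *Nr2f2*. They were chosen by name, with earlier results of these data known. Each was found on exactly 1 of the 35663 entries of a table of RNA levels in whole kidneys of mouse embryos at embryonic stage E13.5. All 10 had a mean above 0.5 FPKM (fragments scaled to transcript length and to library size), the limit used for testing. The table covered 4 libraries of wild-type kidneys, 3 of *Foxd1*GC control kidneys and 3 of *Ntn1*SPKO kidneys, all on the background given as C57/b6. Wild-type kidneys carried no Cre. Controls and mutants both carried *Foxd1*GC, an allele that makes Cre from the *Foxd1* locus and that, by the authors' account, costs 1 *Foxd1* allele. The mutants were in addition homozygous for the conditional *Ntn1* allele, *Ntn1*c/c. Cre from this locus acts in stromal progenitors and their descendants, so the endothelium was studied next to stroma that had lost the secreted guidance protein netrin 1. The comparison of mutant with control kidneys asks how vascular genes differ when stromal netrin 1 is missing. That of control with wild-type kidneys asks what goes with *Foxd1*GC, where Cre and the loss of a *Foxd1* copy cannot be told apart. The labels do not say whether libraries of a group came from separate embryos or litters, so p-values measure the spread between these libraries.

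Endothelial cells line all blood vessels, share a set of junction and surface proteins, and take on arterial, venous, capillary or lymphatic identity as a vascular tree forms. Arterial identity is driven by VEGF and Notch signaling together with SoxF transcription factors and brings gap junction proteins of the connexin family, whereas the nuclear receptor encoded by *Nr2f2* (COUP-TFII) favors venous identity in part by holding Notch signaling back. In the kidney the arterial tree forms while stromal cells and nephron progenitors are still expanding. *Nr2f2* is also made by many mesenchymal cells, among them kidney stroma, so its RNA in a whole kidney cannot be assigned to veins.

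Sequences are shown for *Egfl7* and *Gja4*, the members whose mutant and control values did not overlap, and for *Emcn*, as a member whose groups did overlap. RefSeq promoter windows of GRCm38.p6, from 250 bases before to 50 bases after a transcript start, were matched for 5 of the 10 genes, with 7 windows in all. Capitals mark AGGAAG or its reverse complement CTTCCT, a core that ETS factors bind, and AACAAT or ATTGTT, a core that Sox factors bind. Both strands were searched and these motifs share no bases with each other in the windows shown.
*Egfl7*, chr2:26583615-26583914, plus strand: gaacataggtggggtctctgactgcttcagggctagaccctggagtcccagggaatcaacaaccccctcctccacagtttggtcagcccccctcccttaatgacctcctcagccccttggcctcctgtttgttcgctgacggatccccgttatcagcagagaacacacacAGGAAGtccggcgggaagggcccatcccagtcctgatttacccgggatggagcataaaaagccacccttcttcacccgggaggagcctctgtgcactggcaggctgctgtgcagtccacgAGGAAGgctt
*Emcn*, chr3:137340828-137341127, plus strand: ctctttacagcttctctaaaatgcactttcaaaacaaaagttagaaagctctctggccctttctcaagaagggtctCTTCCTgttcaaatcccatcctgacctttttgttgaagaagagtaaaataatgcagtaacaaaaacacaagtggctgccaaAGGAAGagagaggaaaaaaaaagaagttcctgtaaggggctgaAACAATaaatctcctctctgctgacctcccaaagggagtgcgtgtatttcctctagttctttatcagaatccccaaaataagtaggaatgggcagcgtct
*Gja4*, chr4:127313990-127314289, minus strand: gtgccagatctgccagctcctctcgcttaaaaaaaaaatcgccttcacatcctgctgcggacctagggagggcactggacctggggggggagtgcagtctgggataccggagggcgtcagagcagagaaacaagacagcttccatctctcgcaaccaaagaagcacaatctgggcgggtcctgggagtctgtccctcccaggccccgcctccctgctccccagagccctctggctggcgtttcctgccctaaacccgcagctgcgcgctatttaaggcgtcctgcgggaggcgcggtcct
*Egfl7* has 3 of the 7 windows, and its window shown holds 2 ETS cores where the others hold 3 and 0. The ETS core was in 5 of the 7 windows, in at least 1 window for 4 of the 5 genes, and in 35.4% of 32851 windows of this length in the genome. The Sox core was in 1 of the 7, that of *Emcn*, and in 10.7% of all windows. These are matches of letters only.

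*Egfl7* is also the host of miR-126, a microRNA of endothelial cells. Its mature sequence is shown with the seed, bases 2 to 8, in capitals.
mmu-miR-126a-3p, chr2:26591402-26591423, plus strand: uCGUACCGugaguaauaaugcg
The hairpin (chr2:26591357-26591429, RefSeq, GRCm38.p6) lies within *Egfl7* and outside its annotated exons. The microRNA itself was not analysed here. The *Egfl7* values below are therefore values of the host mRNA.

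The libraries held kidney RNA, since *Six2* was at 63.1 to 96.4 FPKM and *Wt1* at 75.2 to 91.4 FPKM over the 10 libraries. *Ntn1* was at 10.7 to 16.3 FPKM in mutant, 24.2 to 51.4 FPKM in control and 27.1 to 46.3 FPKM in wild-type libraries. The labels therefore matched the targeted gene. From the size of the smallest FPKM values, each library held an estimated 27 to 31 M fragments, where 1 M is 1e6. Only values within a preset range were used, which bounds this estimate in advance. Its likeness between libraries therefore does not show that their depth was alike. Taken from this rough estimate, the least abundant of the 10 genes rested on at least about 110 fragments and *Nr2f2* on at least about 9500. That is a counting error of up to 9.6% and 1.0% alone. *Foxd1*GC control replicate 3 stood apart from the other libraries in its skeletal muscle markers (*Myog* at 30.0 FPKM). Of the kidney markers, its *Ret* and *Cdh16* were the lowest of all libraries, at 4.09 and 9.97 FPKM, and its *Six2* was the highest, at 96.4 FPKM. Several differences are also given without this library. Y-linked transcripts were present in all 3 mutant libraries, in *Foxd1*GC control replicate 2 and in wild-type replicate 3. Embryo sex is thus not balanced between the groups.

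None of the 10 genes passed the test in any of the comparisons. The test was limma on log2(FPKM+0.1) across all genes whose mean reached 0.5 FPKM, and calls needed a Benjamini-Hochberg adjusted p under 0.1 and a 2-fold difference. Between *Ntn1*SPKO and control kidneys 0 of the 10 were called, where 0.0550% of 14550 genes tested were. Between *Ntn1*SPKO and wild-type kidneys 0 were called, against 0.0485% of 14432 genes, and between control and wild-type kidneys 0 were called, against 0.00685% of 14594 genes. At an unadjusted p under 0.05 the counts were 1, 3 and 4 of the 10, in the same order, against 10.7%, 5.76% and 7.06% of all genes. Fold changes below are differences between group means on this log2 scale, with their standard error (SE) and 95% interval (CI). For *Ntn1*, the targeted gene, the mutant difference was −1.48 (SE 0.29) against controls and −1.30 (SE 0.21) against wild type. *Ntn1* was not called either (limma adjusted p of 0.447 and 0.14). A gene that is not called can therefore still differ.

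**Figure D1:**
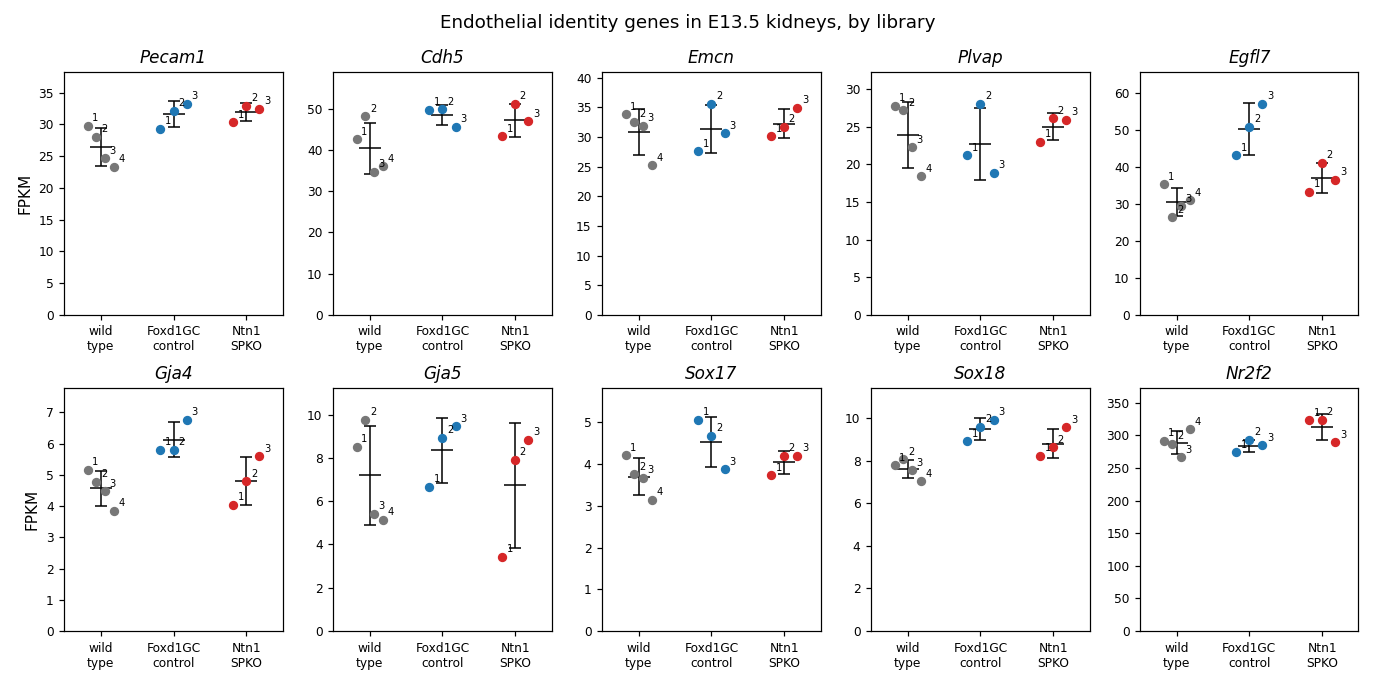
Level of each of the 10 genes in FPKM, 1 panel per gene with a linear axis from 0 that differs between panels, 1 point per library numbered by replicate, and a bar at each group mean with whiskers of 1 SD (4 wild-type libraries, 3 *Foxd1*GC controls and 3 *Ntn1*SPKO libraries). The control points of *Egfl7*, at 43.2 to 57.2 FPKM, lie above all points of the other groups, and *Nr2f2* is on the highest scale and varies least, by a ratio of 1.22.

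The general endothelial genes *Pecam1*, *Cdh5*, *Emcn* and *Plvap* had mutant and control values that overlapped. *Pecam1* (chr11:106654217-106750628, minus strand, GRCm38) encodes the adhesion protein CD31. It was at 30.3, 33.0 and 32.5 FPKM in *Ntn1*SPKO replicates 1 to 3, and controls 1 to 3 were at 29.3, 32.1 and 33.3 FPKM. Wild-type replicates 1 to 4 were at 29.8, 28.0, 24.7 and 23.3 FPKM. The mutant values lay within the range of the controls, and 3 of the 4 wild-type values lay below both. The difference between mutant and control was 0.02 (SE 0.07, CI −0.16 to 0.19, limma adjusted p=0.925).

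*Cdh5* (chr8:104101625-104144511, plus strand) encodes VE-cadherin, the cadherin of endothelial junctions. It was at 43.3, 51.2 and 47.0 FPKM in mutant libraries, 49.7, 49.8 and 45.6 FPKM in control libraries and 42.6, 48.2, 34.7 and 36.0 FPKM in wild-type libraries. The lowest values were those of wild-type replicates 3 and 4, and the groups overlapped. The mutant to control difference was −0.04 (SE 0.08, CI −0.23 to 0.16, limma adjusted p=0.832).

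*Emcn* (chr3:137341067-137432185, plus strand) encodes endomucin, a sialomucin of capillary and venous endothelium, and *Plvap* (chr8:71497765-71511752, minus strand) encodes a protein of the diaphragms that span fenestrae and caveolae. *Emcn* was at 30.2, 31.7 and 34.9 FPKM in mutant, 27.6, 35.7 and 30.6 FPKM in control and 33.8, 32.6, 31.9 and 25.2 FPKM in wild-type libraries. *Plvap* was at 23.0, 26.1 and 25.9 FPKM in mutant, 21.2, 28.1 and 18.9 FPKM in control and 27.8, 27.2, 22.3 and 18.4 FPKM in wild-type libraries. For both genes the spread within a group was as wide as the spread between groups, and *Foxd1*GC control replicate 2 held the highest value of all libraries. Against controls the mutant difference was 0.05 for *Emcn* (SE 0.11, CI −0.22 to 0.32) and 0.15 for *Plvap* (SE 0.15, CI −0.21 to 0.52), with limma adjusted p of 0.848 and 0.63. Leaving out *Foxd1*GC control replicate 3 gave a *Plvap* difference of 0.03, and leaving out replicate 2 of the controls gave 0.32. With all libraries, the intervals leave room for a difference of at most 0.52 on the log2 scale in these 4 genes. In whole-kidney RNA, fewer endothelial cells and less RNA per cell cannot be told apart.

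*Egfl7* (chr2:26580014-26593120, plus strand), which encodes a secreted matrix protein of endothelial cells, was the pan-endothelial gene with separate mutant and control values. It was at 33.3, 41.2 and 36.6 FPKM in *Ntn1*SPKO replicates 1 to 3, at 43.2, 50.9 and 57.2 FPKM in controls 1 to 3, and at 35.4, 26.5, 29.3 and 31.0 FPKM in wild-type replicates 1 to 4. All control libraries lay above all others, the mutants lay between, and wild-type replicate 1 overlapped the mutants. The mutant mean was 37.0 ± 3.96 FPKM (SD, n=3), between a control mean of 50.4 ± 7.03 FPKM (n=3) and a wild-type mean of 30.5 ± 3.72 FPKM (n=4). The mutant to control difference was −0.44 (SE 0.13, CI −0.75 to −0.13), with an unadjusted limma p of 0.012 and an adjusted p of 0.447. An exact two-sided permutation test over the libraries gave p=0.1, the smallest that 3 against 3 can give. Leaving out any 1 library left the difference between −0.55 and −0.34. The Ensembl model *Gm20532* shares coding bases with *Egfl7* and was not analysed here, so part of the *Egfl7* value could come from it.

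Of the arterial genes, *Gja4* and *Gja5* encode gap junction connexins of arterial endothelium and *Sox17* encodes a SoxF transcription factor needed for arterial identity. *Gja4* (chr4:127311421-127314039, minus strand) was at 4.04, 4.79 and 5.59 FPKM in mutant, 5.80, 5.80 and 6.76 FPKM in control and 5.16, 4.78, 4.47 and 3.85 FPKM in wild-type libraries. The control libraries lay above all others, and mutant and wild-type libraries overlapped. The mutant to control difference was −0.35 (SE 0.15, CI −0.70 to 0.00, limma adjusted p=0.447, exact permutation p=0.1). The gap between the highest mutant and the lowest control was small next to the spread, since *Ntn1*SPKO replicate 3 at 5.59 FPKM came close to the controls.

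*Gja5* (chr3:96904693-97077416, plus strand) varied most over the libraries, with a ratio of 2.84 between the highest and the lowest value. It was at 3.44, 7.91 and 8.83 FPKM in mutant, 6.66, 8.92 and 9.45 FPKM in control and 8.51, 9.76, 5.42 and 5.13 FPKM in wild-type libraries. The groups overlapped, and *Ntn1*SPKO replicate 1 alone lay below every other library. The difference of −0.40 (SE 0.36, CI −1.28 to 0.48, limma adjusted p=0.604) became 0.02 without that library.

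*Sox17* (chr1:4490931-4497354, minus strand) was at 3.73, 4.20 and 4.20 FPKM in mutant, 5.06, 4.67 and 3.88 FPKM in control and 4.21, 3.76, 3.68 and 3.14 FPKM in wild-type libraries. Here *Foxd1*GC control replicates 1 and 2 were highest and the third lay among the mutants. The mutant to control difference was −0.16 (SE 0.14, CI −0.48 to 0.17, limma adjusted p=0.593). Leaving out *Foxd1*GC control replicate 3 made it −0.26. Endoderm and the Mullerian duct also make *Sox17*. Of the 6 markers listed for these sources, *Emx2*, which kidney epithelium makes too, was at 51.5 to 57.1 FPKM in mutant, 13.1 to 58.5 FPKM in control and 48.8 to 62.7 FPKM in wild-type libraries. The other 5 summed to 2.80 to 11.4 FPKM in mutant, 9.59 to 25.7 FPKM in control and 5.28 to 16.5 FPKM in wild-type libraries, with *Foxa2* and *Cdx2* under a mean of 0.5 FPKM. Their part in the *Sox17* values was not tested.

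*Sox18* (chr2:181669836-181671640, minus strand), a SoxF gene of blood vessels and of the first lymphatic endothelium, was at 8.23, 8.63 and 9.58 FPKM in mutant, 8.92, 9.61 and 9.93 FPKM in control and 7.80, 8.08, 7.55 and 7.04 FPKM in wild-type libraries. Mutants and controls overlapped, and all of them lay above the wild-type libraries. The mutant to control difference was −0.11 (SE 0.09, CI −0.33 to 0.12, limma adjusted p=0.594).

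The venous gene *Nr2f2* (chr7:70351944-70366735, minus strand) was at 323, 324 and 289 FPKM in mutant, 274, 293 and 285 FPKM in control and 291, 287, 266 and 309 FPKM in wild-type libraries. It was the steadiest of the 10 genes, with a ratio of 1.22 between the highest and the lowest library. The groups overlapped, and the mutant to control difference was 0.14 (SE 0.06, CI −0.02 to 0.29, limma adjusted p=0.447, exact permutation p=0.2). Summed stromal markers were at 816 to 975 FPKM in mutant, 865 to 1639 FPKM in control and 790 to 1029 FPKM in wild-type libraries. Of these markers *Col3a1* and *Col1a1* had the highest means, 448 and 323 FPKM. *Foxd1* was at 14.2 to 15.4 FPKM in mutant, 14.65 to 25.56 FPKM in control and 21.3 to 30.7 FPKM in wild-type libraries. What stroma adds to *Nr2f2* was not tested.

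Between mutant and control kidneys 4 of the 10 genes had a fold change above 0 and 6 below, where 51.2% of all genes tested lay above 0. The median of the 10 was −0.07, and that of all genes was 0.01. The groups did not overlap for 2 of the 10, *Egfl7* and *Gja4*, both lower in mutants, where groups did not overlap for 19.9% of all genes. Likewise, 1 of the 10, *Egfl7*, had an unadjusted limma p under 0.05, where 10.7% of all genes did. Both shares of members were near those of all genes. The count of 1 became 3 without *Ntn1*SPKO replicate 3, where 7.91% of all genes were under this limit, and 2 without *Foxd1*GC control replicate 2, where 23.5% were.

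Compared with wild-type kidneys, mutant values were higher for 9 of the 10 genes, with *Gja5* as the exception, where 51.1% of all genes lay above 0. The median of the 10 was 0.12 and that of all genes 0.00. The groups did not overlap for *Pecam1* and *Sox18*, both higher in mutants, that is for 2 of the 10 where 7.10% of all genes had such groups. Unadjusted limma p was under 0.05 for *Pecam1*, *Egfl7* and *Sox18*, against 5.76% of all genes. Differences were 0.28 for *Pecam1* (SE 0.10, CI 0.05 to 0.50), 0.28 for *Egfl7* (SE 0.11, CI 0.01 to 0.55) and 0.21 for *Sox18* (SE 0.08, CI 0.01 to 0.40). Their limma adjusted p were 0.724, 0.831 and 0.831, and exact permutation p were 0.0571, 0.0857 and 0.0286, the last being the smallest that 3 against 4 can give. The count of 3 fell to 1 without wild-type replicate 3 or 4, where 7.35% and 6.17% of all genes were under this limit. It fell to 0 without *Ntn1*SPKO replicate 2 or 3, where 4.13% and 5.16% were. Scaling all libraries to the same summed FPKM also gave 0, where 4.30% of all genes were under this limit.

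Control kidneys had higher values than wild-type kidneys for 8 of the 10 genes, with *Plvap* and *Nr2f2* as exceptions, where 48.4% of all genes lay above 0. The median of the 10 was 0.27 and that of all genes −0.01. *Egfl7* had the largest difference, 0.72 (SE 0.13, CI 0.42 to 1.02), with an unadjusted limma p of 0.000597, an adjusted p of 0.665 and an exact permutation p of 0.0286. *Gja4* followed with 0.42 (SE 0.13, CI 0.12 to 0.72, limma adjusted p=0.665) and *Sox18* with 0.31 (SE 0.09, CI 0.11 to 0.52, limma adjusted p=0.665). For these 3 genes the groups did not overlap, where 8.09% of all genes had such groups. Together with *Pecam1*, at 0.26 (SE 0.10, CI 0.02 to 0.50), they made 4 of the 10 with an unadjusted limma p under 0.05, where 7.06% of all genes had one. Without any 1 library the count stayed between 3 and 5, while the share of all genes moved between 3.70% and 15.6%.

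The comparisons share libraries, so a high control value alone gives a lower mutant to control difference and a higher control to wild-type difference. Both *Egfl7* and *Gja4* followed that order. So did *Cdh5* (−0.04 between mutant and control, 0.27 between control and wild type), *Gja5* (−0.40, 0.25), *Sox17* (−0.16, 0.29) and *Sox18* (−0.11, 0.31). The 4 genes with a mutant to control difference above 0 did not. For *Egfl7* the difference was −0.44 between mutant and control, 0.28 between mutant and wild type and 0.72 between control and wild type. For *Gja4* these were −0.35, 0.07 and 0.42. The mutant *Gja4* mean of 4.81 ± 0.779 FPKM (SD, n=3) was thus near the wild-type mean of 4.57 ± 0.555 FPKM (n=4), and the control mean of 6.12 ± 0.555 FPKM (n=3) lay above both.

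**Figure D2:**
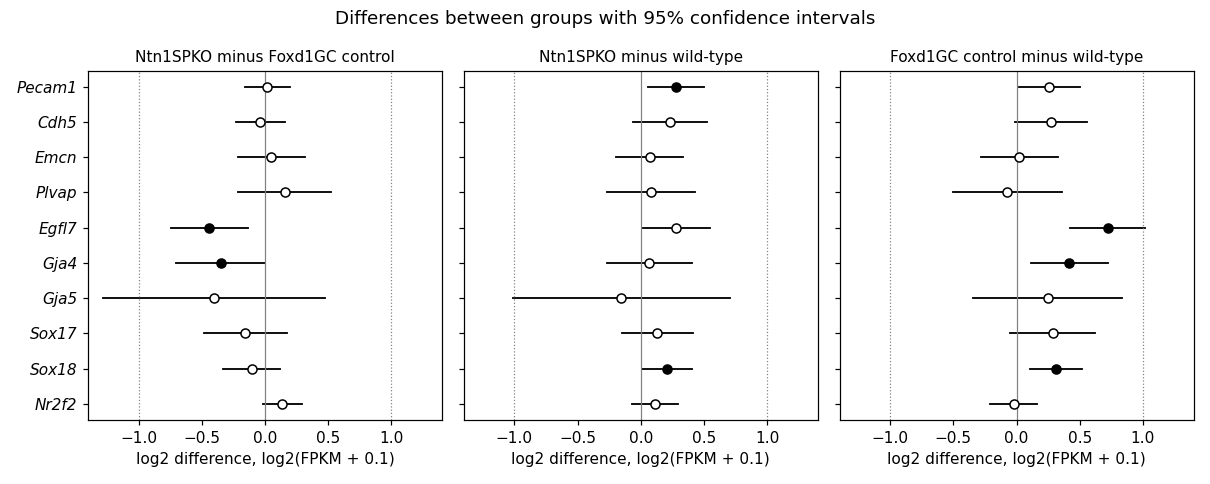
Difference of group means of log2(FPKM+0.1) for each of the 10 genes, with 95% intervals from limma as lines, for mutant minus control, mutant minus wild type and control minus wild type. Filled points mark genes whose groups do not overlap, dotted lines mark a 2-fold difference, and the points of *Egfl7* run from −0.44 in the first panel to 0.72 in the last, with no interval across 0.

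Blood markers had the same directions as *Egfl7* and *Gja4* in the comparisons of controls with mutants and with wild type. Other lists did too. Of 5 skeletal muscle markers, 5 were lower in mutants than in controls and 5 higher in controls than in wild type. Of 8 stromal markers these were 7 and 6. Without *Foxd1*GC control replicate 3 the 5 muscle markers were lower in controls than in wild type. Of 7 nephron progenitor and epithelium markers, 6 were higher in mutants than in controls and 4 lower in controls than in wild type. Of 12 blood and macrophage genes, 12 were lower in mutant than in control kidneys in value (median −0.69), and 1 was at an unadjusted limma p under 0.05, where 10.7% of all genes were. All 12 were higher in control than in wild-type kidneys in value (median 0.73), and 6 were at that limit, where 7.06% of all genes were. Without *Foxd1*GC control replicate 3 these counts were 10 lower (median −0.53) and 10 higher (median 0.64). Against wild-type kidneys 6 were higher and 6 lower in mutants. Their summed level, mostly globin RNA, was 2869 to 11380 FPKM in mutant, 5028 to 11120 FPKM in control and 2951 to 7545 FPKM in wild-type libraries, with all listed markers above a mean of 0.5 FPKM. Of all libraries, *Ntn1*SPKO replicate 3 had the highest sum and *Ntn1*SPKO replicate 1 the lowest. The part of blood markers in the values of *Egfl7* and *Gja4* was not tested. Without *Foxd1*GC control replicate 3, the library with muscle markers, the mutant to control difference was −0.34 for *Egfl7* and −0.28 for *Gja4*, and with Y-linked transcripts as a covariate it was −0.46 and −0.28.

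Per length, *Nr2f2* had the highest level of the 10 genes in every library and overlapped with no other. *Cdh5* came next by its mean and was above *Egfl7* in 8 of 10 libraries, but in 1 of the 3 controls. *Egfl7* was above *Emcn* in 8 of 10 libraries and *Emcn* above *Pecam1* in 6 of 10. The order of these 4 genes thus depended on the group, and *Egfl7* and *Emcn* were apart without overlap in control libraries and overlapped in the others. *Pecam1* was above *Plvap* in 10 of 10 libraries, with ranges that overlapped in wild-type kidneys, and *Plvap* above *Sox18* in 10 of 10 with no overlap. The low end held the SoxF genes and connexins, with *Sox18* above *Gja5* in 8 of 10 libraries, *Gja5* above *Gja4* in 9 of 10 and *Gja4* above *Sox17* in 10 of 10. By their means, arterial genes were therefore the least abundant of the set, at 3.14 to 9.76 FPKM, though *Gja5* was above *Sox18* in wild-type replicates 1 and 2.

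Genes were also set against each other within each library, which takes out any scale that they share. *Egfl7* minus the mean of *Pecam1*, *Cdh5*, *Emcn* and *Plvap*, on the log2(FPKM+0.1) scale, was 0.11, 0.26 and 0.09 in mutant, 0.50, 0.51 and 0.90 in control and 0.10, −0.32, 0.07 and 0.31 in wild-type libraries. Control libraries thus stood above all others in this difference too, by this description with no test. The mean of the arterial genes *Gja4*, *Gja5* and *Sox17* minus that of the 5 pan-endothelial genes was −3.04, −2.70 and −2.53 in mutant, −2.47, −2.60 and −2.45 in control and −2.53, −2.48, −2.63 and −2.69 in wild-type libraries. These overlapped between all groups, and *Ntn1*SPKO replicate 1 was lowest. In that library *Gja5* was below *Gja4*, by 0.23 on the log2 scale, whereas *Gja5* was the higher of this pair of connexins in the other 9 libraries.

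**Figure D3:**
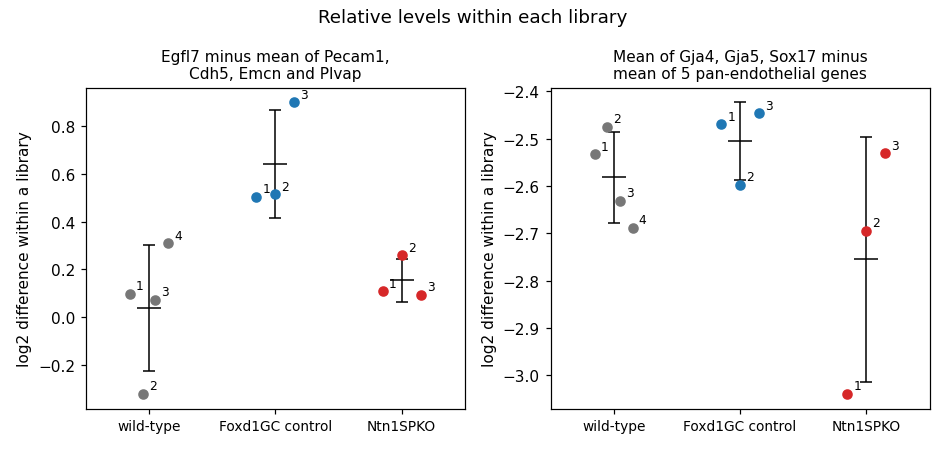
Differences within each library on the log2(FPKM+0.1) scale, 1 point per library numbered by replicate, and a bar at each group mean with whiskers of 1 SD. *Egfl7* relative to the other pan-endothelial genes is 0.50 to 0.90 in control libraries and at most 0.31 in the others, and the arterial genes relative to the pan-endothelial genes overlap between groups, with the lowest point, −3.04, in *Ntn1*SPKO replicate 1.

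Profiles of the 10 genes over the 10 libraries were compared by the root mean square difference of standardized log2 values, which is 0 for identical profiles. Libraries are shared by all points, so these values only describe likeness. The closest pairs were *Pecam1* with *Sox18* (0.513), *Gja4* with *Sox18* (0.540), *Emcn* with *Plvap* (0.581) and *Pecam1* with *Cdh5* (0.600). *Egfl7* was closest to *Sox18* (0.633) and *Gja4* (0.655) and far from *Plvap* (1.50). *Nr2f2* was unlike all the others, at 1.26 to 1.72.

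**Figure D4:**
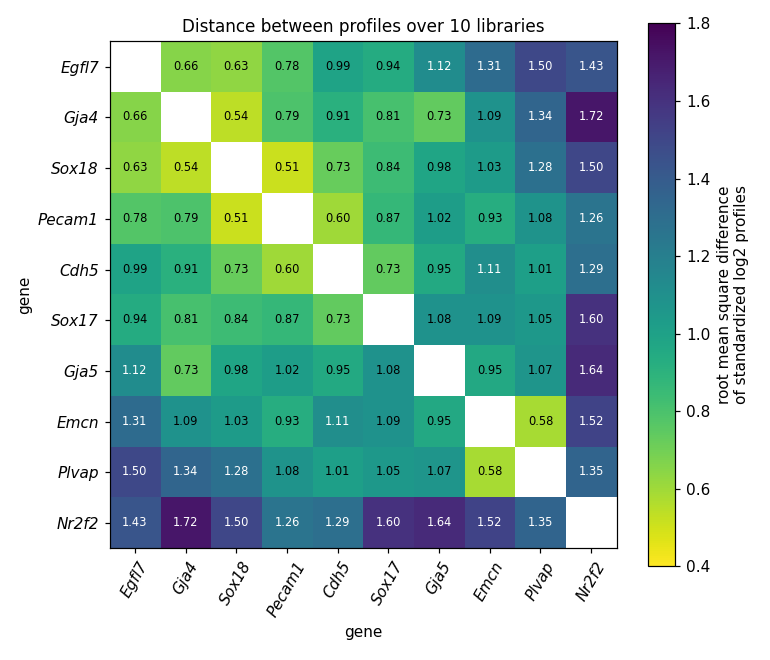
Root mean square difference between the standardized log2(FPKM+0.1) profiles of each pair of the 10 genes over 10 libraries, where 0 means identical profiles and darker cells are less alike. *Pecam1* and *Sox18* are the closest pair (0.513), *Emcn* pairs with *Plvap* (0.581), and the row of *Nr2f2* holds values of 1.26 to 1.72.

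Among all 14533 other genes whose mean reached 0.5 FPKM, some of the 3 closest profiles were those of known endothelial genes. *Tie1*, a receptor tyrosine kinase of endothelial cells, was among the 3 closest to *Cdh5* (0.332) and to *Pecam1* (0.404). *Cldn5*, an endothelial tight junction gene, was among those of *Emcn* (0.381), with *Tmem88* (0.373) and *Ube2r2*. *Apln*, a ligand made by growing endothelial tips, was among those of *Gja5* (0.473), with *Slc2a3* (0.419) and *AC119928.1*. For *Egfl7* the closest were *Nle1* (0.316), *St6galnac4* and *Pcdhb5*, for *Sox18* *Tgfbr3l* (0.271), *Gnai2* and *Ess2*, and for *Sox17* *Rasl12* (0.294), *Golga1* and *Col9a2*. The remaining names were *Chst1* and *Adra1d* for *Pecam1*, *Gm45594* and *Fam102b* for *Cdh5*, *Pros1*, *Zeb2* and *Pid1* for *Plvap*, *C130074G19Rik*, *Disc1* and *Mmp28* for *Gja4*, and *Chst2*, *Rmi2* and *Ctdspl* for *Nr2f2*. With so many genes and 10 libraries, close profiles arise among unrelated genes too.

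Other endothelial genes were described by lists, of which none had a called member. Of 20 further pan-endothelial genes 19 were tested. Between mutant and control kidneys 10 were higher and 9 lower in value (median 0.01), against wild-type kidneys 16 of the 19 were higher in mutants (median 0.14) and 17 of the 19 in controls (median 0.14). *Erg*, an ETS factor of endothelial cells, was at 7.42, 8.10 and 7.40 FPKM in mutant, 6.00, 6.75 and 6.06 FPKM in control and 6.41, 6.64, 5.12 and 4.69 FPKM in wild-type libraries. All mutant libraries lay above all others, opposite to *Egfl7* in the comparison with controls. The difference was 0.28 against controls (SE 0.09, limma adjusted p=0.447) and 0.43 against wild-type kidneys (SE 0.14, limma adjusted p=0.667). The receptor gene *Flt1*, with 0.19 (SE 0.14), came next between mutant and control and was at 0.06 without *Foxd1*GC control replicate 3. *Tie1* was higher in value than in wild-type kidneys by 0.33 (SE 0.15) in mutants and by 0.32 (SE 0.14) in controls, and *Ecscr*, an endothelial surface gene, by 0.27 (SE 0.12) in controls, which was 0.17 without that control.

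Of 15 further arterial genes 14 were tested, with 9 higher and 5 lower in mutant than in control kidneys (median 0.18) and 0 at an unadjusted limma p under 0.05. Against wild-type kidneys 10 of the 14 were higher in mutants (median 0.09) and 7 in controls (median −0.02). *Sox13* had a mutant to control difference of 0.38 (SE 0.17) and the Notch ligand gene *Jag2* one of −0.77 (SE 0.38), with limma adjusted p of 0.447 and 0.451. *Fbln5*, which encodes an elastic fiber protein that mural and stromal cells also make, was at 19.1, 23.2 and 25.7 FPKM in mutant and 31.7, 16.7 and 48.7 FPKM in control libraries, and at 13.2 to 14.7 FPKM in wild-type libraries. The wild-type values lay below all others, with a difference of 0.68 for mutants (SE 0.11, limma adjusted p=0.14) and 1.07 for controls (SE 0.31, limma adjusted p=0.665). The netrin receptor gene *Unc5b* had a difference of 0.26 (SE 0.12) between mutants and wild type, and the Notch ligand gene *Jag1*, which kidney epithelium makes too, one of −0.70 (SE 0.29) between controls and wild type. Without *Foxd1*GC control replicate 3 the latter was −0.34 and that of *Fbln5* in controls 0.72. The mutant to control differences of *Sox13* and *Jag2* were then 0.29 and −0.63. The median of the 14 genes between mutant and control was then 0.06.

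Of 9 venous and lymphatic genes all were tested, and 8 were lower in mutant than in control kidneys in value (median −0.22), whereas 8 were higher in control than in wild-type kidneys (median 0.30). Against wild-type kidneys 5 were higher and 4 lower in mutants (median 0.02). *Nrp2*, a receptor gene of venous and lymphatic endothelium, was at −0.42 (SE 0.17) between mutant and control and *Prox1*, which marks lymphatic endothelium, at −0.61 (SE 0.29), with limma adjusted p of 0.447 and 0.45. Between control and wild-type kidneys *Nrp2* was at 0.44 (SE 0.16) and *Vwf*, the von Willebrand factor gene, at 1.03 (SE 0.45), both with groups that overlapped. Without *Foxd1*GC control replicate 3, *Prox1* was at −0.40 and *Vwf* at 0.68. *Nrp2* was then at −0.28 between mutant and control and at 0.30 between control and wild type. Without that library, 9 of the 9 genes were lower in mutant than in control kidneys (median −0.24). *Nrp2*, *Vwf*, *Prox1*, *Lyve1* and *Pdpn* each had their highest value in *Foxd1*GC control replicate 3. Which cells of the kidney made the RNA of this list was not tested. Between mutant and wild-type kidneys *Flt4* was at 0.27 (SE 0.16) and *Lyve1* at −0.48 (SE 0.31). *Nr2f2*, with 0.14 between mutant and control, lay apart from them. Of 8 capillary and tip cell genes 7 were tested, of which 2 were higher and 5 lower in mutants than in controls (median −0.07). *Aqp1*, a water channel gene, was at −0.62 (SE 0.27, limma adjusted p=0.447), and *Rgcc* at −0.71 (SE 0.35, limma adjusted p=0.45), which was −0.33 without *Foxd1*GC control replicate 3. The list then had 3 genes higher and 4 lower (median −0.02). Against wild-type kidneys 4 of the 7 were higher in mutants (median 0.01) and 5 in controls (median 0.10). *Rgcc* was at −0.32 (SE 0.20) in mutants against wild type and *Aqp1* at 0.58 (SE 0.19) in controls against wild type. *Car4*, a carbonic anhydrase gene of capillaries, was below its wild-type mean of 10.9 FPKM in both, at −0.78 (SE 0.22, limma adjusted p=0.529) in mutants and −1.30 (SE 0.45, limma adjusted p=0.665) in controls, which was −0.78 without *Foxd1*GC control replicate 3.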

How the data were processed

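Whole E13.5 kidneys were sequenced in 10 libraries. The authors quantified reads with Salmon against coding sequences of GRCm38, summed them to genes with tximport and deposited FPKM values, in which median-of-ratios scaling was already present. bcl2fastq 2.17.1.14 is named in the submitters' processing notes. No count table was used. Depth was only estimated, from FPKM values within a preset range that bounds the result, so counting errors are rough and cover counting error only. Genes whose mean reached 0.5 FPKM in the libraries of a fit were tested with limma 3.58.1 (R 4.3.3, eBayes with an intensity trend, Benjamini-Hochberg adjustment) on log2(FPKM+0.1), which understates fold changes of low genes. Each fit held the 2 groups compared. Single genes also had exact two-sided permutation tests. The fit was tested on simulated data. Named genes were the 10 members, the 3 closest profiles of each, and up to 2 genes with the smallest p per endothelial list and comparison. *Ntn1*, *Foxd1*, *Myog* and kidney markers served as checks. The members and lists were chosen with earlier results of these data known. Alternatives were other pseudocounts (0.01 and 1), filters, scalings, limma settings, a joint fit of all 10 libraries, a replicate block, and leaving out each library. Y-linked transcripts as a covariate, and list genes without *Foxd1*GC control replicate 3, were added after seeing the data.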

Additional observations from a re-analysis of the deposited data

How the results depend on the processing

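No gene of the 10 was called under any of the 62 alternatives tried over the 3 comparisons, and the lowest adjusted p was 0.124. Of 560 fold changes under alternatives, 531 kept their direction and 29 did not, in 12 of 30 gene and comparison pairs. *Egfl7*, *Sox17* and *Sox18* kept their direction in all 3 comparisons. The cause of a change was not tested.

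The count of genes at an unadjusted p under 0.05 between mutant and control kidneys (1) was 2 with all 10 libraries in one fit and 1 to 3 with 1 library left out. Between mutant and wild-type kidneys (3) it was 0 at the same summed FPKM and 0 to 3 with 1 library left out. Between control and wild-type kidneys (4) it was 3 to 5 with 1 library left out. With the replicate number as a block these counts were 2, 0 and 2, where the fits with wild-type kidneys also left out wild-type replicate 4, which has no partner. Same-numbered libraries deviated together little (correlations of −0.04 to 0.08 over genes), where libraries of unlike number were at −0.12 to 0.06. The labels do not say whether the numbers pair the libraries. With 3 or 4 libraries per group these correlations cannot settle it.

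Between mutant and control kidneys, leaving out 1 library gave −0.036 to 0.056 for *Pecam1*, −0.10 to 0.021 for *Cdh5*, −0.037 to 0.146 for *Emcn*, 0.032 to 0.316 for *Plvap*, −0.262 to −0.074 for *Sox17* and −0.65 to 0.018 for *Gja5*. *Pecam1* was also −0.001 after quantile scaling, and the Y-linked covariate gave −0.011 for *Pecam1*, −0.15 for *Emcn* and −0.17 for *Plvap*. That covariate fit rests on *Foxd1*GC control replicate 2 as the only such control library, so no count is given for it above. Between mutant and wild-type kidneys the ranges were −0.025 to 0.117 for *Emcn*, −0.037 to 0.16 for *Plvap*, −0.045 to 0.185 for *Gja4* and −0.403 to 0.265 for *Gja5*. The block, again without wild-type replicate 4, gave −0.025, −0.037 and −0.010 for *Emcn*, *Plvap* and *Gja4*, and the Y-linked covariate 0.20 for *Gja5*. Between control and wild-type kidneys the ranges were −0.077 to 0.106 for *Emcn*, −0.234 to 0.049 for *Plvap* and −0.06 to 0.011 for *Nr2f2*. The block gave −0.073 for *Emcn* and 0.011 for *Nr2f2*, and quantile scaling 0.041 for *Nr2f2*. The arterial minus pan-endothelial difference with a pseudocount of 1 was −2.38 in wild-type and −2.34 in control kidneys, and −2.40 in controls with medians in place of means. Over all genes, 78 were called between mutant and control kidneys without *Foxd1*GC control replicate 2 and 0 with all 10 libraries in one fit, against 8. With the Y-linked covariate, which rests on wild-type replicate 3 as the only such wild-type library, 187 were called between mutant and wild-type kidneys against 7, and 30.1% of all genes were at an unadjusted p under 0.05 against 5.76%.

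Groups of 3 or 4 libraries limit the precision. Over the 10 genes, the intervals between mutant and control kidneys spanned from 0.31 (*Nr2f2*) to 1.75 (*Gja5*) on the log2 scale. By the rough depth estimate, *Nr2f2* rested on at least about 9500 fragments, while *Gja4*, *Gja5* and *Sox17* each fell to about 110 in the lowest library.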
